A study of Mus musculus with 6 samples.

Results

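A set of 9 genes that brake the cell cycle or control p53 was followed in 6 mouse gliomas, 2 made with HoxA5 virus and 4 with mCherry virus. They were the CDK inhibitors Cdkn1a, Cdkn1b, Cdkn1c, Cdkn2a, Cdkn2b, Cdkn2c and Cdkn2d, the retinoblastoma gene Rb1 and the p53 ligase gene Mdm2. Members were chosen by gene symbol, as every array probe whose platform symbol was 1 of 10 names. That gave 20 of the 45281 probes, for 9 of the 10 genes; no probe carried the symbol Trp53, the p53 gene itself, and it was not analysed here. A probe counted as detected on an array where its detection p-value was under 0.05. Of the 20 probes, 15 were detected on all 6 arrays, 17 on at least 2 and could be tested, 1 on a single array and 2 on 0.

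Both kinds of tumour were induced in adult mice, some Ntva-Ink4a/Arf+/- and some Ntva-Ink4a/Arf-/-, on a background of FVB/N, C57BL6, BALB/C and 129. Avian DF1 fibroblasts producing RCAS-PDGFb virus were injected into the frontal cortex, mixed with DF1 cells producing either HoxA5 virus (experimental tumours, n = 2) or mCherry virus (control tumours, n = 4), and total RNA of tumour tissue was hybridised to Illumina bead arrays. All groups therefore share PDGFb as driver and the loss of at least 1 Ink4a/Arf copy. The sources used here state neither which mouse lacked 1 copy and which both nor the exons that the allele removes. In Ntva mice the viral receptor is driven by the nestin promoter, so infection starts in nestin-expressing progenitors. The labels do not state whether the tumours are from different mice, and p-values cover no more than the spread among these 6 samples, which may be technical. The comparison asks how the transcripts of these brakes stood in tumours given HoxA5 beside PDGFb, in a study that asked whether more HOXA5 makes PDGF-driven gliomas more aggressive.

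CDK inhibitors bind cyclin-dependent kinases and stop them from phosphorylating the retinoblastoma protein, which in its unphosphorylated form holds E2F transcription factors and keeps S-phase genes silent. The INK4 proteins bind Cdk4 and Cdk6, and the CIP/KIP proteins bind cyclin-kinase complexes more widely. The Cdkn2a locus encodes the INK4 protein Ink4a and, in another reading frame from its own first exon, Arf, which restrains Mdm2 and thereby stabilises p53; Cdkn1a is a direct p53 target. Deletion of this locus with its neighbour Cdkn2b is among the commonest lesions of human glioblastoma.

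Levels below are normalized log2 intensities, and no level of a probe is set against that of another probe. Median raw intensities were 153.1 and 166.8 on the HoxA5 arrays and 136.1 to 156.9 on the mCherry arrays, with 20097 and 20970 and with 19950 to 21904 probes detected. Xist was high in HoxA5 2, mCherry 3 and mCherry 4 and the Y-linked Eif2s3y in the other tumours, which splits them into 3 females and 3 males. The Hoxa5 probe was detected on 0 of 6 arrays and does not check the delivered gene, since the part of the transcript it covers is not known here. The detected Pdgfb probe read 9.58 and 9.37 in HoxA5 tumours, against 8.32, 10.08, 9.16 and 9.08 in mCherry tumours 1 to 4. All 9 measured neuron markers were detected in both groups, as brain tissue would give. Among other marker lists, 6 of 8 myelin genes and 2 of 9 astrocyte genes fell and 4 of 7 fibroblast and matrix genes rose in HoxA5 tumours, while 0 of 10 microglia and macrophage, 0 of 8 vascular and 0 of 3 T and NK cell genes passed. Over all genes tested, 4.64% were called lower and 1.21% higher in limma. mCherry 3 and mCherry 4 lay at opposite ends of the mCherry group in the cell division and neuron lists. The myelin, astrocyte and fibroblast and matrix lists had 0 genes called without HoxA5 2.

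None of the 9 genes passed limma's test at a Benjamini-Hochberg adjusted p under 0.05, against 5.85% of all 12242 genes tested (1.21% higher and 4.64% lower in HoxA5 tumours). Cdkn2c and Cdkn1c had an unadjusted p under 0.05, 2 of 9 genes against 24.6% of all genes. Taken probe by probe, 0 of the 17 tested probes passed, against 4.73% of all probes, 3 had an unadjusted p under 0.05, and the groups did not overlap in 3, against 33.2% of all probes. By the sign of the brightest probes, 8 of the 9 genes were higher in HoxA5 tumours and 1, Cdkn1c, was lower. The share of positive differences over all genes was not counted, here or for the lists below. The median log2 difference of the 9 genes was 0.39, beside 0.072 over all genes. For 2 genes, Cdkn2a and Cdkn2c, both HoxA5 tumours lay above all mCherry tumours, and for Cdkn1c both lay below. Groups that do not overlap in 3 of 9 genes are a share near that of all genes, which was 35.5% (18.3% higher and 17.2% lower). In bulk tumour RNA, fewer cells that carry a transcript and less of it per cell cannot be told apart.

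**Figure D1:**
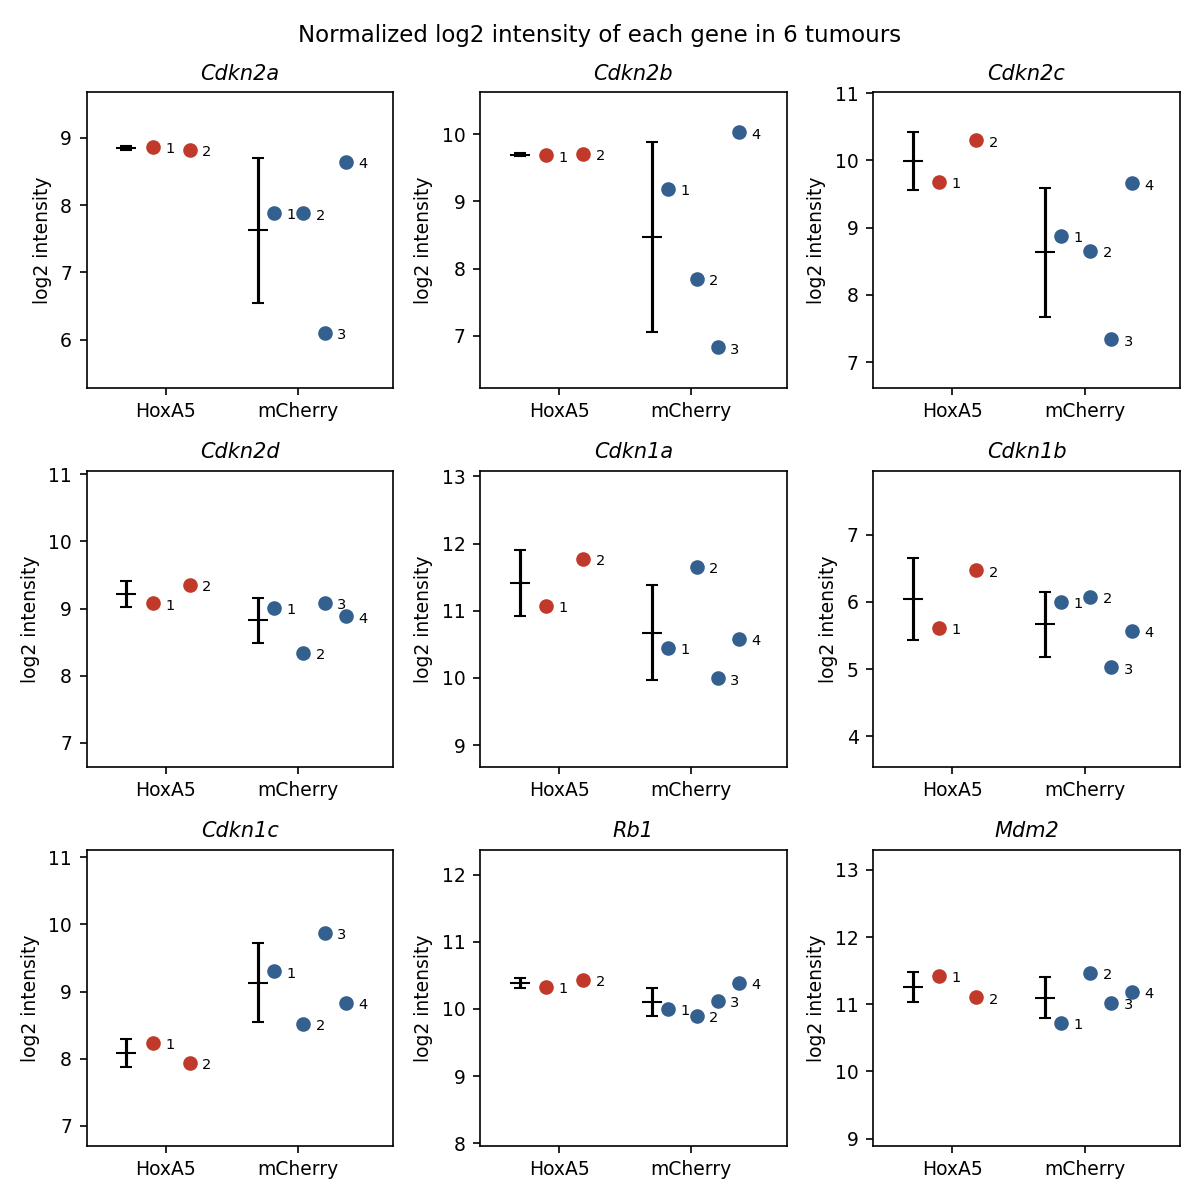
Normalized log2 intensity (vertical axes, each spanning the same number of log2 units) of the brightest probe of each gene in HoxA5 tumours (red, left) and mCherry tumours (blue, right). Numbers beside points are the tumour's replicate number, and bars with caps are mean ± SD (n = 2 and n = 4); Cdkn2a, Cdkn2b and Cdkn2c spread over more than 2 log2 units among mCherry tumours, with mCherry 3 lowest and mCherry 4 highest.

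The Ink4a/Arf locus is the one engineered in these mice, and its transcripts start from separate promoters, so the 250 bases upstream of each annotated start are shown, on the minus strand of GRCm38.p6 from RefSeq. The first lies upstream of the Arf first exon at chr4:89294620-89294869 and the second upstream of the Ink4a first exon at chr4:89282193-89282442. Capitals mark an E2F-type motif.
Cdkn2a Arf start: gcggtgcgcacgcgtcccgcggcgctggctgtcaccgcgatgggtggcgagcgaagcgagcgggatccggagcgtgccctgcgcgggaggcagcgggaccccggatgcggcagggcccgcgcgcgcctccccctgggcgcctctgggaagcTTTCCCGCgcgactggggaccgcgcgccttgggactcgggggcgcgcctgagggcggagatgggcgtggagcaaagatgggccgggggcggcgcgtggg
Cdkn2a Ink4a start: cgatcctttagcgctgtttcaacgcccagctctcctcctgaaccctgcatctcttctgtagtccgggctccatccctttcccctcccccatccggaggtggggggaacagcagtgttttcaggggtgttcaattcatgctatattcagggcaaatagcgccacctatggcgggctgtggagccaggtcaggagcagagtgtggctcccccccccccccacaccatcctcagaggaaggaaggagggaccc
The letters searched were TTTCCCGC, TTTGGCGC and TTTCGCGC on both strands, which do not overlap the other motif searched here. The Arf window holds 1 match, with its nearest base 92 upstream of the start, and the Ink4a window holds 0. Of all 32851 promoter windows in the table, cut to the same 250 upstream bases, 1.53% hold at least 1 match.

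Cdkn2a had 3 probes. The brightest is annotated to NM_009877, the Arf transcript, and read 8.87 and 8.83 in HoxA5 tumours, against 7.88, 7.88, 6.10 and 8.64 in mCherry tumours 1 to 4. Both HoxA5 tumours were above every mCherry tumour, but mCherry 4 lay just below them, and mCherry 3 far below the rest. The raw intensities behind these values were 639.8 and 659.6 in HoxA5 tumours and 356.9, 369.4, 168.3 and 476.4 in mCherry tumours, and the probe was detected in all 6 tumours. The mean was 8.85 ± 0.030 in HoxA5 tumours (SD, n = 2), against 7.63 ± 1.08 in mCherry tumours (SD, n = 4), with a difference of 1.22 (95% interval -0.13 to 2.57, limma adjusted p = 0.242). A two-sided exact permutation test gave p = 0.2, where 15 splits of the arrays allow no p below 0.0667.

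The second Cdkn2a probe is annotated to NM_001040654, the Ink4a transcript. It read 7.52 and 8.34 in HoxA5 tumours, against 7.80, 7.36, 5.79 and 7.90 in mCherry tumours 1 to 4. Here the groups overlapped, with HoxA5 1 below mCherry 1 and mCherry 4, and mCherry 3 again lowest. The difference was 0.72 (95% interval -0.58 to 2.02, limma adjusted p = 0.5 over the 19479 probes tested one by one). A further probe, annotated to the Arf transcript, was detected on 0 of 6 arrays, with normalized values of 4.43 and 4.62 in HoxA5 tumours and 4.38 to 4.80 in mCherry tumours. Both detected probes thus gave a Cdkn2a signal in all 6 tumours. The annotation does not say whether a probe lies in an exon that both transcripts share or one that the engineered allele lacks, so these values assign no genotype to a tumour.

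Cdkn2b, the gene next to Cdkn2a on chromosome 4, encodes Ink4b, an inhibitor of the same kinases that TGF-beta induces. It read 9.68 and 9.71 in HoxA5 tumours, against 9.19, 7.85, 6.83 and 10.03 in mCherry tumours 1 to 4. The HoxA5 tumours were nearly equal while the mCherry tumours spread on both sides of them, from mCherry 3 to mCherry 4. The mean was 9.70 ± 0.019 in HoxA5 tumours (SD, n = 2), against 8.47 ± 1.42 in mCherry tumours (SD, n = 4), with a difference of 1.22 (95% interval -0.43 to 2.88, limma adjusted p = 0.335).

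Cdkn2c encodes Ink4c, a brake on Cdk4 and Cdk6 in progenitor cells of the mouse brain. Its brightest probe read 9.68 and 10.30 in HoxA5 tumours, against 8.87, 8.65, 7.34 and 9.66 in mCherry tumours 1 to 4. Both HoxA5 tumours were highest, although HoxA5 1 exceeded mCherry 4 by very little. The difference was 1.36 (95% interval 0.13 to 2.59, unadjusted p = 0.0334 and adjusted p = 0.166 in limma). Its other probes differed by 1.38 (95% interval -0.039 to 2.81) and 0.70 (95% interval -0.49 to 1.89), and in both of them the groups overlapped. Without mCherry 4, limma called 1038 genes higher and 1370 lower over all genes, against 148 and 568 with all tumours kept. In that fit the difference of the brightest Cdkn2c probe was 1.71 and passed (limma adjusted p = 0.0308), the only one of the 9 genes to do so. Over the 18 other settings its adjusted p ran from 0.0308 to 0.509.

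Cdkn2d, which encodes Ink4d, read 9.08 and 9.35 in HoxA5 tumours, against 9.01, 8.34, 9.08 and 8.88 in mCherry tumours 1 to 4. HoxA5 1 and mCherry 3 were level, so the groups met. The difference was 0.39 (95% interval -0.31 to 1.09, limma adjusted p = 0.472).

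By their brightest probes, Cdkn2a, Cdkn2b and Cdkn2c stood apart from the other members in how far the mCherry tumours differed among themselves. Between the lowest and the highest mCherry tumour, Cdkn2a spanned 2.54 log2 units (5.83-fold), Cdkn2b 3.20 (9.19-fold) and Cdkn2c 2.32 (5.00-fold), by their brightest probes. The median span over all genes was 0.82, and a span at least as wide as theirs was found in 2.54%, 0.809% and 3.74% of genes. By their brightest probes the other 6 genes spanned 0.49 (Rb1) to 1.67 (Cdkn1a). Other tested probes spanned 1.87 and 2.28 for Cdkn1a, 2.11 for Cdkn2a, and 2.39 and 1.76 for Cdkn2c. By these probes Cdkn1a was not apart from Cdkn2a and Cdkn2c. These spans are a description, with no test. Cdkn2a, Cdkn2b and Cdkn2c were each lowest in mCherry 3 and highest among mCherry tumours in mCherry 4. In all, 5 of the 9 genes were lowest of the 6 arrays in mCherry 3, as were 22.5% of all genes.

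Since mCherry 3 was the lowest and mCherry 4 the highest mCherry tumour for Cdkn2a, Cdkn2b and Cdkn2c, opposite moves follow when either is left out. What the fits add is the size of these 3 differences. Without mCherry 3 they were 0.72 for Cdkn2a, 0.68 for Cdkn2b and 0.93 for Cdkn2c, with limma adjusted p-values of 0.337, 0.549 and 0.217. Without mCherry 4 they were 1.57, 1.75 and 1.71, with limma adjusted p-values of 0.0706, 0.0624 and 0.0308. The sign was positive in each of the 18 other settings for these 3 genes. Without background correction the Cdkn2a difference was 0.79, and from the authors' deposited log2 values it was 0.81.

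The 5 genes whose centred profile over the 6 arrays was closest to that of Cdkn2a, by root mean square difference, were Arl14epl (0.091 log2 units), Lhfpl3 (0.17), H2ac20 (0.18), Ninj2 (0.18) and H2ac10 (0.18). Arl14epl read 10.46 and 10.33 in HoxA5 tumours, against 9.55, 9.64, 7.85 and 10.35 in mCherry tumours 1 to 4. Lhfpl3, a gene of the oligodendrocyte progenitor lineage, read 11.93 and 11.91, against 10.48, 10.72, 9.08 and 11.68. Both have the HoxA5 tumours and mCherry 4 high and mCherry 3 low, a likeness to Cdkn2a for which they were picked. The order was not the same throughout, since in Arl14epl mCherry 4 lay above HoxA5 2. By the same measure Cdkn2c was 21st and Cdkn2b 296th of the 12241 other genes, and Cdkn1a 2230th, all as descriptions over 6 arrays.

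Among the CIP/KIP genes, Cdkn1a encodes Cip1, the CDK inhibitor through which p53 stops the cell cycle. Its promoter window is shown because the gene is the read-out of the p53 branch, with 250 bases upstream of a start on the plus strand, at chr17:29090729-29090978 of GRCm38.p6, from RefSeq. Capitals mark CATG, any 6 bases and CATG, letters found in p53 response elements, which were searched on both strands and do not overlap the E2F-type letters.
Cdkn1a upstream start: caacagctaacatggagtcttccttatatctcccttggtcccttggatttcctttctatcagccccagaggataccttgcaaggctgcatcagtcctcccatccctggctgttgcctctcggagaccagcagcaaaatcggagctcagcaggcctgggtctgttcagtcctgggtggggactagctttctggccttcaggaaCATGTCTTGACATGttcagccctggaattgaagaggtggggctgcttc
The nearest base of the match lies 35 upstream of this start. Cdkn1a has another annotated start farther downstream, whose window at chr17:29093519-29093768 holds 0 matches. Of all 32851 windows cut in the same way, 0.49% hold these letters, and the windows of the other members in the table hold 0. These letters are a description of the window and say nothing of binding in these tumours.

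By its brightest probe Cdkn1a read 11.07 and 11.77 in HoxA5 tumours, against 10.45, 11.66, 9.99 and 10.59 in mCherry tumours 1 to 4. HoxA5 1 was below mCherry 2, so the groups overlapped. The mean was 11.42 ± 0.49 in HoxA5 tumours (SD, n = 2), against 10.67 ± 0.71 in mCherry tumours (SD, n = 4), with a difference of 0.75 (95% interval -0.20 to 1.70, limma adjusted p = 0.306). The other probes differed by 1.17 (95% interval 0.12 to 2.23, limma adjusted p = 0.178 over probes) and by 0.78. In all 3 probes mCherry 2 was the highest mCherry tumour, and in the dimmest it was the highest of all 6, at 9.67. Cdkn1a was thus highest among mCherry tumours in mCherry 2, where Cdkn2a, Cdkn2b and Cdkn2c were highest in mCherry 4. The difference of the brightest probe was 0.40 without HoxA5 2 and 1.11 without HoxA5 1.

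Cdkn1b encodes Kip1, which is mostly set by protein turnover rather than by its transcript. Its brightest probe was dim and was detected on 5 of 6 arrays, at 5.61 and 6.47 in HoxA5 tumours and 5.99, 6.08, 5.03 and 5.57 in mCherry tumours 1 to 4. The HoxA5 tumours lay on both sides of mCherry 1 and 2. The difference was 0.37 (95% interval -0.52 to 1.27, limma adjusted p = 0.596), and it was -0.056 without HoxA5 2. A second probe, detected on 3 arrays, differed by 0.025, and the remaining probe was detected on 0.

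Cdkn1c encodes Kip2, an imprinted inhibitor tied to cell cycle exit in development, and was the only member lower in HoxA5 tumours by brightest probes. It read 8.23 and 7.94 in HoxA5 tumours, against 9.30, 8.52, 9.88 and 8.83 in mCherry tumours 1 to 4. Both HoxA5 tumours were below every mCherry tumour, and mCherry 3 was highest. The difference was -1.05 (95% interval -1.94 to -0.16, unadjusted p = 0.0255 and adjusted p = 0.144 in limma, exact permutation p = 0.133). It was negative in all 18 other settings, between -1.25 and -0.80, and passed in none of them (adjusted p from 0.0799 to 0.445). The gene has 1 probe.

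**Figure D2:**
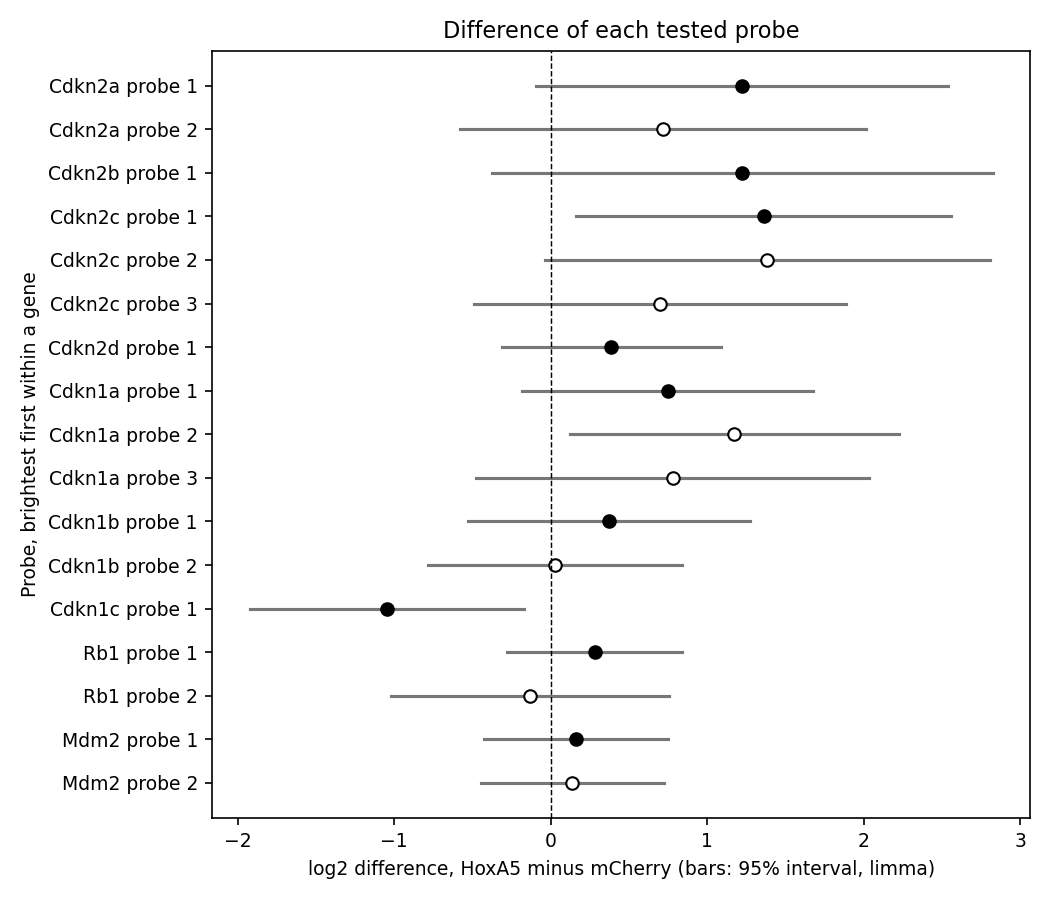
Log2 difference, HoxA5 minus mCherry, of the 17 tested probes (points; filled for the brightest probe of a gene) with the 95% interval from limma (bars). Intervals of 14 probes include 0, and those of 1 Cdkn2c, 1 Cdkn1a and the Cdkn1c probe do not.

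Rb1, the pocket protein that these kinases inactivate, varied least among mCherry tumours when the members were compared by their brightest probes. Its brighter probe read 10.33 and 10.43 in HoxA5 tumours, against 10.00, 9.90, 10.12 and 10.38 in mCherry tumours 1 to 4. HoxA5 1 was below mCherry 4, so the groups overlapped. The difference was 0.28 (95% interval -0.27 to 0.83, limma adjusted p = 0.508), and the other probe differed by -0.13 (95% interval -1.02 to 0.76). The probes disagreed in sign, and both intervals include 0.

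Mdm2, the ubiquitin ligase that removes p53 and that Arf restrains, had 2 probes detected on all arrays. The brighter read 11.42 and 11.10 in HoxA5 tumours, against 10.73, 11.46, 11.02 and 11.18 in mCherry tumours 1 to 4. mCherry 2 was highest and mCherry 1 lowest, with the HoxA5 tumours between them. The difference was 0.16 (95% interval -0.42 to 0.74, limma adjusted p = 0.728), and 0.14 by the other probe. Its remaining probe was detected on 1 array, HoxA5 2.

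Genes downstream of the retinoblastoma protein stood higher in HoxA5 tumours by sign. Of 27 measured E2F target genes, all 27 had a positive difference, with a median of 1.85, but 1 of the 27 passed and rose, Pcna, the clamp of DNA polymerases, by 1.94 (limma adjusted p = 0.0439). Rrm1, a subunit of ribonucleotide reductase, differed by 1.89, the thymidine kinase Tk1 by 2.67 and the polymerase subunit Pole by 2.03, with limma adjusted p-values of 0.0632, 0.0668 and 0.0699. Tk1 read 10.18 and 10.34 in HoxA5 tumours, against 8.17, 7.45, 5.67 and 9.04 in mCherry tumours 1 to 4, and the groups did not overlap. Beside this and the lists below, 1.21% of all genes were called higher and 4.64% lower in limma with all tumours kept. List calls gained without mCherry 4, here and below, stand beside 1038 genes called higher and 1370 lower over all genes. Those gained with array weights stand beside 642 higher and 1104 lower. For 18 of the 27 E2F target genes both HoxA5 tumours lay above all mCherry tumours, against 18.3% of all genes. The count of calls was 24 without mCherry 4, 1 without mCherry 3, where it was Tk1 and not Pcna, and 0 without HoxA5 1, HoxA5 2, mCherry 1 or mCherry 2. With all 6 tumours kept it was 19 with array weights, 13 with replicate number as a block and 3 at most under other processing. It was 0 with no detection filter or with sex as a block.

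Cyclins, their kinases and E2F factors were also mostly higher by sign, with 11 of 12 measured G1 cyclin and kinase genes and 9 of 12 pocket protein, E2F and partner genes positive. Of the 12 measured G1 cyclin and kinase genes, 1 rose and 0 fell. It was Ccna2, the S-phase cyclin, which was at least 1.76-fold higher in HoxA5 tumours (limma adjusted p = 0.0277). No mCherry array showed Ccna2 above background, so it met the detection filter only through the HoxA5 tumours, where it is high. It also passed with no detection filter. With detection required on all 6 arrays it was not tested, and 0 genes of the list were called. The D-type cyclins Ccnd2 and Ccnd3 differed by 2.25 and 1.41 and the phosphatase Cdc25a by 1.22 without passing (limma adjusted p = 0.076, 0.084 and 0.0765). Ccnd2 read 12.93 and 12.83 in HoxA5 tumours, against 11.59, 10.59, 8.82 and 11.53 in mCherry tumours 1 to 4. This list had a median difference of 0.98, and 5 of its genes passed without mCherry 4 or with array weights. Ccna2 did not pass without any of the other tumours or with sex as a block. Of 12 pocket protein, E2F and partner genes 0 passed in limma and 4 had an unadjusted p under 0.05, against 24.6% of all genes. Rbl1, a relative of Rb1, differed by 1.75, E2f2 by 1.97 and E2f1 by 0.83. E2f7, which no mCherry array showed above background, was at least 1.14-fold higher without passing. It too met the detection filter only through the HoxA5 tumours. That list's median was 0.44, and 2 of its 12 genes, E2f2 and Rbl1, passed without mCherry 4 or with array weights. Over all genes those fits called 1038 and 642 higher.

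mCherry 3, lowest in Cdkn2a, Cdkn2b and Cdkn2c, was also lowest in cell division genes and highest in neuron genes. The mean of the E2F target list was 9.29 and 9.56 in HoxA5 tumours, against 7.82, 7.52, 6.59 and 9.02 in mCherry tumours 1 to 4. The mitosis list, of which 6 of 10 measured genes rose, had 10 called without mCherry 4, 5 without mCherry 3 and 0 without any 1 of the other tumours. The mean of the mitosis list was 9.05 and 9.30 in HoxA5 tumours, against 6.84, 7.00, 5.77 and 8.06 in mCherry tumours 1 to 4. Of its 6 genes that rose, Ttk and Ube2c met the detection filter only through the HoxA5 tumours. In both lists mCherry 3 was lowest and mCherry 4 closest to the HoxA5 tumours, as for Cdkn2a, Cdkn2b and Cdkn2c. The neuron list, of which 8 of 9 measured genes fell, had a mean of 9.88 and 8.85 in HoxA5 tumours, against 12.04, 12.01, 12.53 and 11.14 in mCherry tumours. Its summed linear level was 6883 to 13694 in HoxA5 tumours and 34227 to 99454 in mCherry tumours, and each of its genes was detected in both groups. Of the neuron list 0 genes were called without HoxA5 2, and 5 to 8 without any 1 of the other tumours. The part of these differences in tissue content in the INK4 values was not tested.

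Of 6 measured genes of the choroid plexus and ependyma, 3 fell in HoxA5 tumours, namely Ttr, Clic6 and Kl, and like Cdkn1c each was highest in mCherry 3. Aqp1 and the ependymal gene Foxj1 had differences of the opposite sign, 1.08 and 0.24, with groups that overlapped (limma adjusted p = 0.529 and 0.685). The mean of the list was 6.00 and 5.93 in HoxA5 tumours, against 8.48, 8.33, 9.71 and 7.72 in mCherry tumours 1 to 4. The groups did not overlap in this mean. The summed linear level of the list was 479 to 1237 in HoxA5 tumours and 18318 to 33692 in mCherry tumours, but Ttr alone made up 88.0% to 96.5% of it in mCherry tumours. Without Ttr the sum was 348 to 1201 in HoxA5 tumours and 633 to 4029 in mCherry tumours, which overlap. The genes called numbered 4 without mCherry 4, 3 without mCherry 3, 2 without mCherry 1 or mCherry 2, and 1 without HoxA5 1 or HoxA5 2. Kl and Folr1 were not above background on either of the HoxA5 arrays and met the detection filter only through the mCherry tumours. The part of these tissues in the Cdkn1c difference was not tested.

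**Figure D3:**
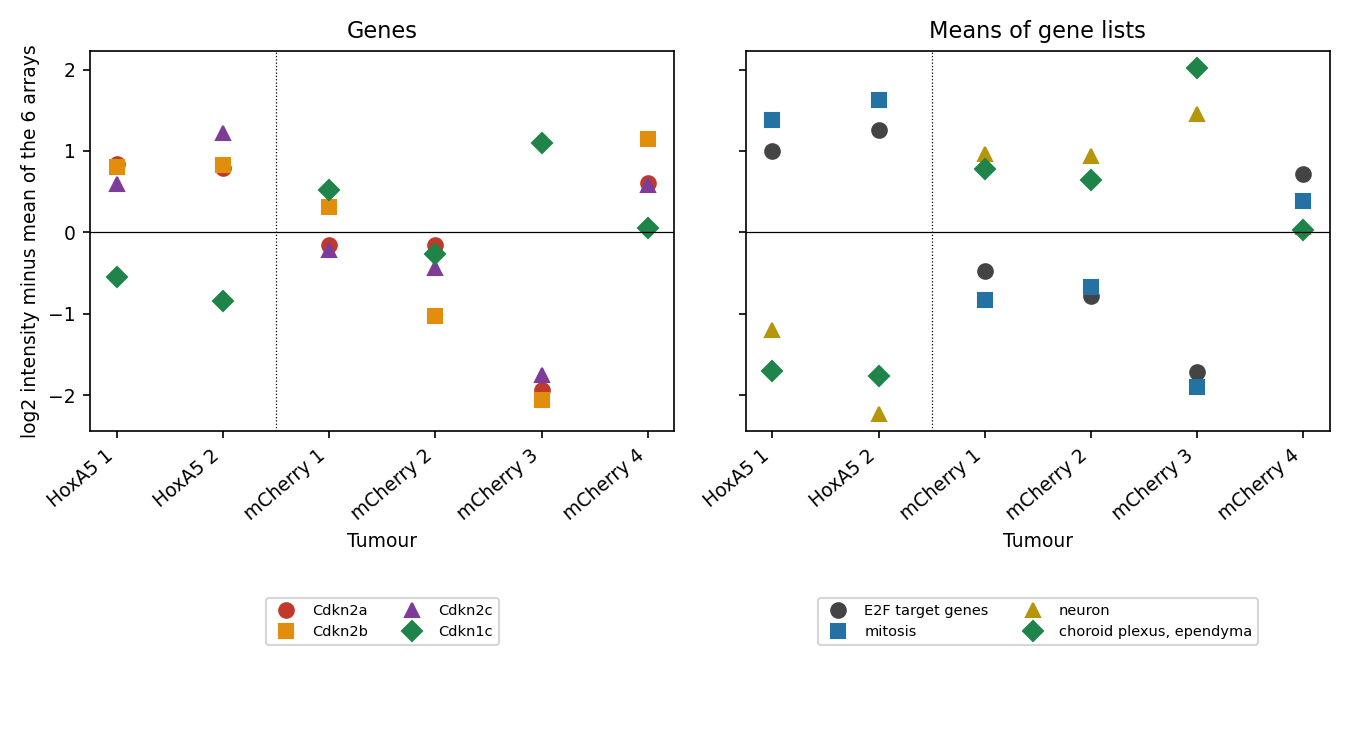
Log2 intensity minus the mean of the 6 arrays (vertical axis) in each tumour (horizontal axis, HoxA5 tumours left of the dotted line), for 4 genes (left) and for the means of 4 gene lists (right). Cdkn2a, Cdkn2b and Cdkn2c are lowest in mCherry 3, as are the E2F target and mitosis lists, and Cdkn1c is highest there, as are the neuron and choroid plexus lists; the neuron and choroid plexus points of mCherry 4 nearly coincide.

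On the p53 side, 1 of 21 measured p53 target genes rose in HoxA5 tumours and 0 fell, with a median difference of 0.26. The gene was Phlda3, which blocks Akt at the membrane, at 11.44 and 11.33 in HoxA5 tumours, against 10.12, 10.46, 9.53 and 10.54 in mCherry tumours 1 to 4. The difference was 1.23 (limma adjusted p = 0.0498), close to the threshold. In fits that left out 1 tumour, Phlda3 passed without mCherry 4 and 0 genes of the list did without any of the others. With all tumours kept it passed with median scaling, robust eBayes or array weights, but not without background correction, from the authors' deposited log2 values or with sex as a block, nor under the other filters, probe choices and fits without the trend. Apaf1, which assembles the apoptosome, differed by 0.70 and the stress gene Sesn2 by 0.91, while Rrm2b, a p53-induced subunit of ribonucleotide reductase, differed by -0.88. Their limma adjusted p-values were 0.146, 0.15 and 0.155. The list's median was -0.031 without HoxA5 2 and 0.43 without HoxA5 1.

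None of 15 measured p53 regulators passed in limma, with 2 at an unadjusted p under 0.05, against 24.6% of all genes. The list's median was 0.36, and 1 gene, Twist1, passed without mCherry 4 or with array weights. Twist1, which can silence Arf, differed by 1.26 and the checkpoint kinase Chek2 by 0.93. The ribosomal protein gene Rpl23, whose product binds Mdm2, differed by -0.41 and the deubiquitinase Usp7 by 0.49. Their limma adjusted p-values were 0.119, 0.144, 0.24 and 0.266.

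Of 21 genes that regulate Ink4/Arf transcription, 0 rose and 1 fell. This was Cbx7, a Polycomb protein that represses the locus, which read 6.00 and 5.38 in HoxA5 tumours, against 8.07, 7.81, 8.87 and 7.16 in mCherry tumours 1 to 4. The groups did not overlap, and the difference was -2.28 (limma adjusted p = 0.0278). Ezh2, the Polycomb methyltransferase and an E2F target, differed by 1.57 and the T-box repressor Tbx2 by 1.00 without passing (limma adjusted p = 0.0808 and 0.0756). Cbx2, another Polycomb protein that no mCherry array showed above background, was at least 1.48-fold higher (limma adjusted p = 0.0739). It met the detection filter only through the HoxA5 tumours. The list's median was 0.33. Without mCherry 4, 7 of its genes passed, and without HoxA5 1, HoxA5 2, mCherry 1 or mCherry 2 0 did. Array weights gave 4 calls. The Cbx7 call was also lost without background correction, with the authors' deposited log2 values and with sex as a block, and Ezh2 passed as the mean of its probes.

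None of 8 genes of Kip1 turnover and transcription passed in limma, and 1, against 24.6% of all genes, had an unadjusted p under 0.05. This was Skp2, the F-box protein that marks Kip1 for degradation, at 6.37 and 6.19 in HoxA5 tumours, against 4.93, 5.15, 4.89 and 5.51 in mCherry tumours 1 to 4. The groups did not overlap, and the difference was 1.16 (limma adjusted p = 0.053). Skp2 passed without mCherry 4, with median scaling, with probes averaged per gene and with array weights. Foxo1, a transcriptional activator of Kip1, differed by -0.82, Rbx1, a subunit of the Skp2 ligase, by 0.25 and Rnf123 by -0.41. Their limma adjusted p-values ran from 0.306 to 0.538.

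Genes beside the Ink4/Arf locus did not move as one. Mtap, on the other side of Cdkn2a from Cdkn2b and often co-deleted with it in human tumours, was at 8.94 and 9.41 in HoxA5 tumours, against 8.64, 8.12, 7.85 and 9.28 in mCherry tumours 1 to 4. Its difference was 0.70 (limma adjusted p = 0.332), and like Cdkn2a, Cdkn2b and Cdkn2c it was lowest in mCherry 3. Dmrta1, next beyond Cdkn2b, differed by 0.90 and the neuronal RNA-binding gene Elavl2, farther out, by -2.01, neither passing in limma (adjusted p = 0.135 and 0.053). Elavl2 passed as lower without mCherry 4, with probes averaged per gene or taken singly, and with robust eBayes or array weights.

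**Figure D4:**
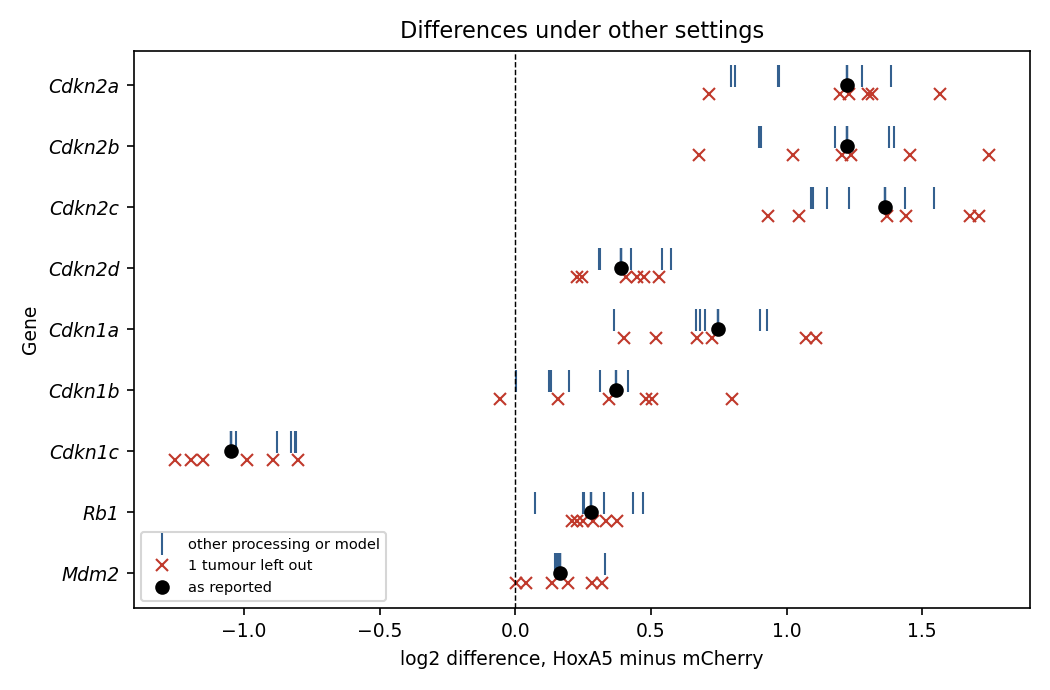
Log2 difference, HoxA5 minus mCherry (horizontal axis), of each gene as reported (black points), under other processing or models (blue ticks) and with 1 tumour left out (red crosses). The sign of Cdkn1b turned without HoxA5 2, and that of the other 8 genes did not under any setting drawn.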

How the data were processed

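Total RNA of 2 HoxA5 and 4 mCherry tumours was hybridised to Illumina bead arrays, per the labels. The authors deposited raw bead intensities, with no normalization between arrays, and a detection p-value per probe and array. They also deposited normalized log2 values, whose background step and offset are not given in the sources used here; the submitters' processing notes name limma without a version. From the intensities, neqc of limma 3.58.1 in R 4.3.3 gave background-corrected, quantile-normalized log2 levels (offset 16), with the negative controls estimated through the detection p-values. Of 45281 probes, 34885 carry 1 gene symbol in the platform annotation, and 34807 of these matched the RefSeq table of GRCm38.p6. The brightest probe of each gene, by mean over all arrays among probes detected (p under 0.05) on at least 2 of 6 arrays, gave 12242 genes. HoxA5 was compared with mCherry with lmFit and eBayes (intensity trend) on 4 residual degrees of freedom, with Benjamini-Hochberg adjustment over all genes, and likewise over 19479 probes. The fit was tested on simulated data, with the same spread for every gene and both groups and with noise independent between genes. That test does not cover the unequal spreads and shared patterns of the real genes. Gene lists are described by counts and medians; some genes, such as Ezh2, stand in more than 1 list. Beyond the members, up to 4 genes of smallest p were named per list, and the 5 genes closest to Cdkn2a. The members and lists were chosen with earlier results of these data known. A bound, "at least N-fold", is given where 1 group had no array above background. Such a gene met the detection filter only through the group where it is high. The number of arrays limits the precision.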

Additional observations from a re-analysis of the deposited data

Results flagged for a closer look

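For 3 of the 17 tested probes the HoxA5 tumour lay on one side of every mCherry tumour of its sex in males and on the other side in females. The share of all probes with this pattern was not counted, so no excess among the 9 genes is claimed. Each sex has 1 HoxA5 tumour, so that sex and tumour cannot be told apart. The brightest Cdkn1b probe differed by -0.42 in males and 1.17 in females, and the contrast, male minus female, was -1.59 (limma unadjusted p = 0.0723, adjusted p = 0.999). A second Cdkn1b probe, detected on 3 arrays, differed by -0.84 in males and 0.89 in females, a contrast of -1.73 (limma unadjusted p = 0.0147, adjusted p = 0.999). The dimmer Rb1 probe differed by -0.42 in males and 0.16 in females, a contrast of -0.58 (limma unadjusted p = 0.53, adjusted p = 0.999). Mean differences also had opposite signs, without every tumour following, for the Ink4a probe of Cdkn2a (-0.057 in males and 1.50 in females) and the dimmer tested Mdm2 probe (-0.13 in males and 0.41 in females). The sex contrast passed in limma for 0 of all 19479 probes, and 232 had an unadjusted p under 0.05. Among the 4 mCherry tumours, no tested probe of the 9 genes had a tumour far enough from the others to pass Dixon's criterion.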

How the results depend on the processing

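Over 18 other settings, 159 of 161 values of the 9 gene differences kept their sign and their side of the threshold. The exceptions were Cdkn1b, at -0.056 without HoxA5 2, and Cdkn2c, at 1.71 without mCherry 4 (limma adjusted p = 0.0308), which made 1 of the 9 genes called there and 0 in every other setting. Leaving out 1 tumour at a time gave differences of 0.72 to 1.57 for Cdkn2a, 0.68 to 1.75 for Cdkn2b, 0.93 to 1.71 for Cdkn2c, 0.40 to 1.11 for Cdkn1a, -0.056 to 0.80 for Cdkn1b and -1.25 to -0.80 for Cdkn1c. Over all genes, 148 were called higher and 568 lower in HoxA5 tumours. These counts were 159 and 372 without background correction, 265 and 437 with median scaling, 144 and 362 from the authors' deposited log2 values, 95 and 453 with no detection filter, and 642 and 1104 with array weights. Leaving out 1 tumour gave 0 to 1038 higher and 2 to 1370 lower; the fewest came without HoxA5 2 and the most without mCherry 4. With a single HoxA5 tumour left, that tumour is assumed to vary like the mCherry tumours. Higher calls were 20.7% of calls, 29.9% without background correction, 37.7% with median scaling, 36.8% with array weights and 9.17% with sex as a block (31 higher and 307 lower). Median scaling put the median of all genes at 0.20, beside 0.072. The labels do not say whether shared replicate numbers pair tumours. Same-numbered tumours deviated with r = -0.36 and -0.24. The deviations of the 2 HoxA5 tumours are mirror images of each other, so these r values cannot decide it. With the replicate block, 236 genes were higher and 669 lower and 0 of the 9 members were called. In that fit 13 E2F targets and 3 G1 genes without Ccna2 were called, E2f2 and Elavl2 gained a call and Phlda3 lost its own. Cdkn1b was not detected on all 6 arrays and gave no value under that filter. The p53 target median was -0.031 and that of Kip1 turnover -0.14 without HoxA5 2. Probes near background, such as those of Cdkn1b, limit what a difference can show.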
